A study of Rattus norvegicus with 9 samples.

Results

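The BMP signalling genes described here were 10 genes of ligands, receptors, inhibitory Smads and Id proteins, namely Bmp2, Bmp4, Bmpr2, Acvrl1, Eng, Smad6, Smad7, Id1, Id2 and Id3. They were found by gene symbol among the 29215 features of the array, and where a gene had several features 1 was to be chosen by its mean value over the 9 arrays, a measure that does not compare groups. All 10 genes had 1 feature each, so that this choice was never needed. The tissue was the right ventricle of SD rats, with 3 arrays for sham operation (Sham), 3 for the F- group and 3 for the F+ group. Pulmonary artery banding (PAB), a surgical narrowing that makes the right ventricle pump against a raised pressure, had been done in both the F- and F+ groups. The banded rats were divided after 4 weeks by the fibrotic area of the heart, below 6.5% in the F- group and above 6.5% in the F+ group, and thus by an outcome and not by assignment. Their age is not stated in the labels or methods. Whether the arrays of a group stand for separate animals is not stated either. The methods say only that hybridizations were done in triplicate with averaged intensities. Every p-value thus reflects the variation among these arrays, which may not be that among animals.

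Bone morphogenetic proteins (BMPs) are secreted ligands of the transforming growth factor-β superfamily. They bring together type II receptors such as that encoded by Bmpr2 and type I receptors such as ALK1, encoded by Acvrl1, which phosphorylate Smad1, Smad5 and Smad9. With Smad4 these enter the nucleus and switch on target genes. Among the targets are the Id genes, whose proteins bind and hold back basic helix-loop-helix factors, and Smad6 and Smad7, whose proteins block the receptors and close a feedback loop. Endoglin, encoded by Eng, is a co-receptor that works with ALK1 in endothelium. Inherited loss of BMPR2 function causes pulmonary arterial hypertension, and that of ACVRL1 or ENG causes hereditary haemorrhagic telangiectasia.

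Upstream sequence of Eng, the gene of the co-receptor with higher values in the F+ group, and of the Id genes, whose groups overlapped, is shown because these genes stand at the receiving and at the target end of the same pathway. The sequences were read from the RefSeq promoter table of the rat assembly GRCr8, in which 7 of the 10 genes matched. Smad6, Acvrl1 and Bmp2 had no entry there and were not searched for motifs. Each printed sequence ends where the gene begins in RefSeq. They lie at chr3:36332029-36332189 (plus strand) for Eng, chr3:161671314-161671524 (plus strand) for Id1, chr6:47470996-47471245 (minus strand) for Id2 and chr5:153656041-153656252 (plus strand) for Id3. Capitals mark matches, on either strand, to the Smad motif CAGAC, to CCAAT and to TATAAA.
Eng: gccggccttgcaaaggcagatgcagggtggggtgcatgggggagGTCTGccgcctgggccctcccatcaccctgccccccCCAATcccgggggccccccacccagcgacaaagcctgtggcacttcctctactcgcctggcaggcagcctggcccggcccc
Id1: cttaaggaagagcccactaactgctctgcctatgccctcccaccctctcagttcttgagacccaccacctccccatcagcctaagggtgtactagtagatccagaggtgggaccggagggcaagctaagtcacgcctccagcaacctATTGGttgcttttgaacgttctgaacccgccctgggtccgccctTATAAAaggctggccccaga
Id2: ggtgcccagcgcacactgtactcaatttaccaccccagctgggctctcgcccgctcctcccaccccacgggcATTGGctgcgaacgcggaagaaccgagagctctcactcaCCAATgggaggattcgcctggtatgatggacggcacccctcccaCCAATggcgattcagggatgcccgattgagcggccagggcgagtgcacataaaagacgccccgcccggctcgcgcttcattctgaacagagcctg
Id3: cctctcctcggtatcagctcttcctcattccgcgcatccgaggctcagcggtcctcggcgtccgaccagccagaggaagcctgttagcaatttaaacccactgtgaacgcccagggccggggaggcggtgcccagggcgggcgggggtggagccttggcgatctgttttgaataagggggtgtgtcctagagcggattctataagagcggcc

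Motifs were sought in whole windows of 250 bases before and 50 after the start site. For Eng, Id1 and Id3 this site lies inside the gene as RefSeq bounds it. Their printed sequences thus stop short of it, holding 161, 211 and 212 of the 250 bases. Positions here count from the start site and not from the printed end. Eng held CAGAC at 206 and 19 bases before the start, and Id1 held it 23 bases after the start. The Eng match at 19 bases and the Id1 match fall past the printed ends. Bmp4 held it at 200 and 35 bases before the start. The windows of Bmp4 and Bmpr2, however, lie wholly inside those genes as RefSeq bounds them, with 0 bases before the gene. Of all 33469 promoters of this length, 50.1% held CAGAC on one or the other strand, so that such matches are common. The GC-rich letters GGCGCC, known from BMP response elements, occurred in Smad7 at 96 and 36 bases before the start and in 11.0% of all promoters. The palindrome GTCTAGAC, which does not hold the letters CAGAC, occurred in 0 of the 7 windows and in 0.2% of all promoters. Id1 had TATAAA 59 bases before the start (14.2% of all promoters). CCAAT was found 3 times in Id2, 1 time in Id1 and 1 time in Eng (37.5% of all promoters). TATAAA and CCAAT were added after the sequences had been seen, and a match describes letters and is not a binding site.

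The values as deposited ran from 1.0 to 190.4, with array medians of 33.4 to 33.9, on a scale that neither labels nor methods name. The ratios below are differences between group means of log2 values, named as F+/F-, F-/Sham and F+/Sham, and are given with the standard error (SE), the 95% confidence interval (CI) and the adjusted p of limma over all features. All 9 ventricular cardiomyocyte markers were measured and 0 were at 0. Sham array 2 stood apart in atrial genes, with a summed value over 4 markers of 486.6 against 201.8 to 294.9 on the other 8 arrays. Bmp10, a BMP ligand of atrial muscle, was 85.8 on that array and 15.5 to 18.9 on the other 8. F- array 1 stood apart from the other F- arrays in macrophage genes, with a summed value of 515.2 against 416.0 and 425.7. That array also read 155.6 for Nppa, the atrial natriuretic peptide gene, against 37.0 and 43.6 on F- arrays 2 and 3, while F+ arrays lay between 134.3 and 149.5. Sham arrays 1 to 3 read 57.7, 135.8 and 59.7 for Nppa, so that Sham array 2 lay within the F+ range. For Postn, the periostin gene of activated fibroblasts, F- array 1 read 86.7 against 43.6 and 35.4 on F- arrays 2 and 3, while F+ arrays lay between 65.5 and 77.6. In both genes this F- array thus lay above the F+ arrays.

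Both inhibitory Smads had higher values in the F+ group, where all arrays lay above the F- arrays for Smad6 and for Smad7, by 1.22-fold and 1.24-fold, and neither gene passed after adjustment. Smad6, which blocks BMP receptors in particular, was 61.1, 61.0 and 58.0 on F+ arrays 1 to 3, 48.5, 48.5 and 50.3 on F- arrays 1 to 3, and 53.0, 52.8 and 52.4 on Sham arrays 1 to 3. All F+ arrays of Smad6 lay above all Sham arrays, and all Sham arrays above all F- arrays. The F+/F- log2 ratio of Smad6 was 0.29 (SE 0.030, 95% CI 0.22 to 0.36, unadjusted p = 1.25e-05, adjusted p = 0.119), and 1.12% of all features had a larger one. Smad6 passed, at adjusted p between 0.0326 and 0.0479, under 4 of the alternatives tried, which were dim features left out, only features with 1 symbol, a mean-variance trend with robust priors, and untransformed values. Its adjusted p was highest, at 0.770, when only the arrays of the 2 banded groups were fitted.

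Smad7, which acts on both BMP and TGF-β receptors, was 40.5, 44.2 and 40.2 on F+ arrays 1 to 3 and 38.1, 31.9 and 31.3 on F- arrays 1 to 3. The Sham arrays read 40.2, 37.1 and 33.9. The lowest F+ array of Smad7 thus equalled the highest Sham array and lay above every F- array. The F+/F- log2 ratio of Smad7 was 0.31 (SE 0.091, 95% CI 0.096 to 0.52, adjusted p = 0.617). Were the values squares of log2 intensities, the folds between the banded groups would be 1.67 for Smad6, 1.56 for Smad7, 1.54 for the co-receptor gene Eng and 1.34 for the receptor gene Acvrl1.

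**Figure D1:**
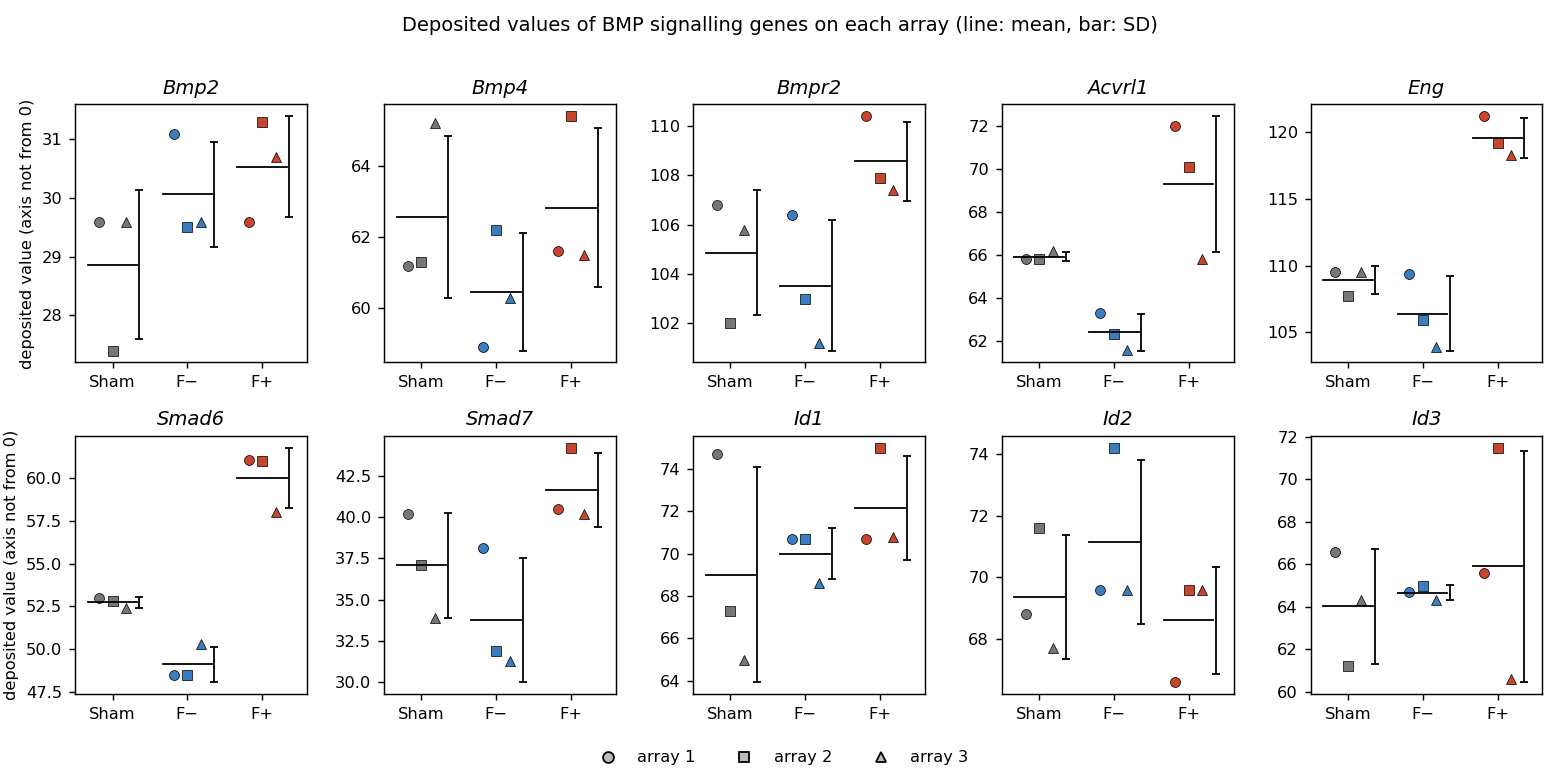
Values as deposited (vertical axis, not from 0) of the 10 BMP signalling genes on every Sham, F- and F+ array. Circles, squares and triangles are arrays 1, 2 and 3, lines are means and bars are SDs. The F+ arrays of Smad6 lie between 58.0 and 61.1, above the Sham arrays, and its F- arrays lie between 48.5 and 50.3, below them.

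Among the receptors, Eng and Acvrl1 had higher F+ than F- values, by 1.12-fold and 1.11-fold, and Bmpr2 differed less. Eng was 121.2, 119.2 and 118.3 on F+ arrays 1 to 3, 109.4, 105.9 and 103.9 on F- arrays 1 to 3, and 109.5, 107.7 and 109.5 on Sham arrays 1 to 3. Every F+ array of Eng lay above the other 6 arrays, while F- and Sham arrays overlapped. For Eng the F+/F- log2 ratio was 0.17 (SE 0.027, 95% CI 0.11 to 0.23, adjusted p = 0.402). Acvrl1 was 72.0, 70.1 and 65.8 on F+ arrays 1 to 3, 63.3, 62.3 and 61.6 on F- arrays 1 to 3, and 65.8, 65.8 and 66.2 on Sham arrays 1 to 3. F+ array 3 of Acvrl1 was at the level of the Sham arrays, and all F- arrays were below them. For Acvrl1 the F+/F- log2 ratio was 0.15 (SE 0.035, 95% CI 0.069 to 0.23, adjusted p = 0.527).

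Bmpr2, the type II receptor gene, was 110.4, 107.9 and 107.4 on F+ arrays 1 to 3 and 106.4, 103.0 and 101.2 on F- arrays 1 to 3. Its Sham arrays were 106.8, 102.0 and 105.8. The F+ arrays of Bmpr2 were the highest of the 9, with the lowest of them close to F- array 1 and Sham array 1. For Bmpr2 the F+/F- log2 ratio was 0.069 (SE 0.030, 95% CI -0.0014 to 0.14, adjusted p = 0.674).

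The ligand genes Bmp2 and Bmp4 overlapped between all groups. Bmp2 read 29.6, 31.3 and 30.7 on F+ arrays 1 to 3, 31.1, 29.5 and 29.6 on F- arrays 1 to 3, and 29.6, 27.4 and 29.6 on Sham arrays 1 to 3. Bmp4 read 61.6, 65.4 and 61.5 on F+ arrays 1 to 3, 58.9, 62.2 and 60.3 on F- arrays 1 to 3, and 61.2, 61.3 and 65.2 on Sham arrays 1 to 3. For both ligands, single arrays of 1 group lay within the spread of the others. The F+/F- log2 ratio was 0.022 for Bmp2 (95% CI -0.074 to 0.12, adjusted p = 0.912) and 0.055 for Bmp4 (95% CI -0.037 to 0.15, adjusted p = 0.761).

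The 3 Id genes, direct targets of the pathway, overlapped between all groups too. Id1 was 70.7, 75.0 and 70.8 on F+ arrays 1 to 3, 70.7, 70.7 and 68.6 on F- arrays 1 to 3, and 74.7, 67.3 and 65.0 on Sham arrays 1 to 3. The Sham arrays of Id1 spanned nearly the whole range of the 9 arrays. The F+/F- log2 ratio of Id1 was 0.044 (95% CI -0.079 to 0.17, adjusted p = 0.857). Id2, known to act in the heart's conduction system, was 66.6, 69.6 and 69.6 on F+ arrays 1 to 3, 69.6, 74.2 and 69.6 on F- arrays 1 to 3, and 68.8, 71.6 and 67.7 on Sham arrays 1 to 3. Its F+/F- log2 ratio was -0.052 (95% CI -0.14 to 0.035, adjusted p = 0.762), the only negative one of the 10 genes. Id3 was 65.6, 71.5 and 60.6 on F+ arrays 1 to 3, 64.7, 65.0 and 64.3 on F- arrays 1 to 3, and 66.6, 61.2 and 64.3 on Sham arrays 1 to 3. The F+ arrays of Id3 lay both above and below the F- arrays. Its F+/F- log2 ratio of 0.024 (95% CI -0.11 to 0.16, adjusted p = 0.937) turned to -0.037 without F+ array 2. The intervals do not show that the Id genes were equal between the banded groups. Their upper ends lay below the lower end of the Smad6 interval, and the difference between these ratios was not tested.

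Counted together, 9 of the 10 genes had a positive F+/F- log2 ratio, as had 14093 of all 29215 features. The median was 0.062 against -0.0023 for all features. Of the 9, Bmp2 and Id3 turned to -0.013 and -0.011 when the arrays were centred on endothelial markers. After adjustment 0 of the 10 passed, as 0.00342% of all features did. At an unadjusted p under 0.05, 4 of the 10 were higher (Smad6, Eng, Acvrl1 and Smad7) and 0 were lower, against 3.65% of all features higher and 3.76% lower. On 5 of the 10 (those 4 and Bmpr2) all F+ arrays lay above all F- arrays and on 0 below, against 4.46% of all features above and 5.28% below. Without F- array 1, which stood apart in Nppa, Postn and macrophage genes, the F+/F- log2 ratio was 0.28 for Smad6 (adjusted p = 0.0791), 0.40 for Smad7 (adjusted p = 0.142), 0.19 for Eng (adjusted p = 0.0826) and 0.16 for Acvrl1 (adjusted p = 0.228), and 0 of the 10 passed. The 10 genes had been put together with results of these arrays known, so that these counts are descriptions.

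**Figure D2:**
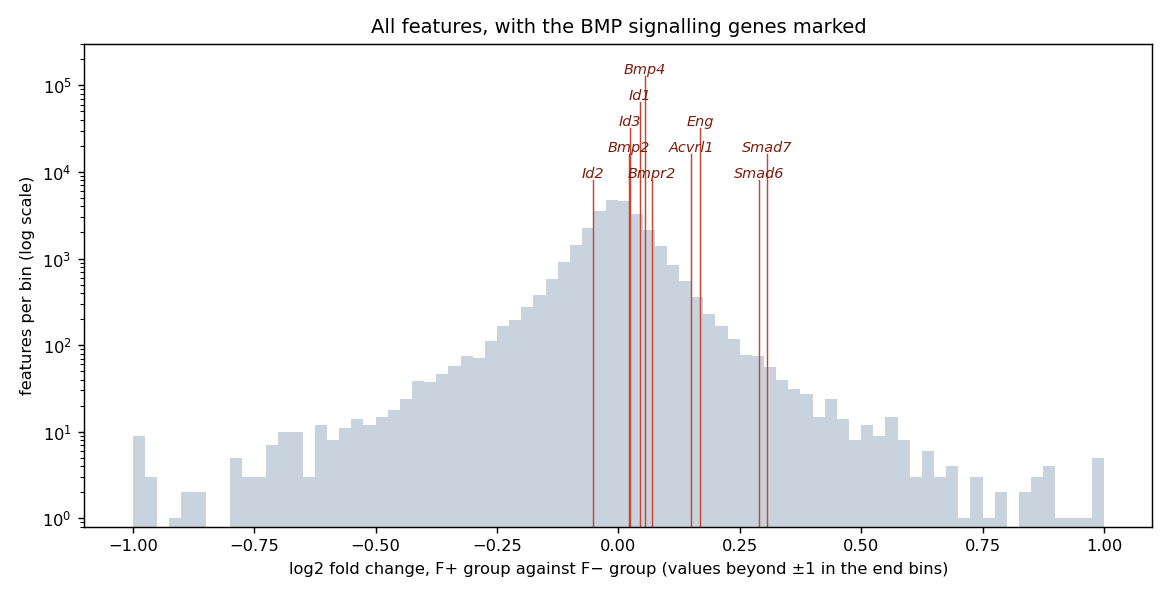
Number of features (vertical axis, log scale) by F+/F- log2 ratio (horizontal axis), with the 10 BMP signalling genes as red lines. Smad6 at 0.29 and Smad7 at 0.31 lie in the right tail, where 1.12% and 0.952% of all features had larger values, and the Id and BMP ligand genes lie near the centre.

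Set against Sham, the banded groups lay on opposite sides for Smad6, Smad7, Acvrl1, Eng, Bmpr2, Bmp4 and Id2. Because the same Sham arrays serve both comparisons, the values are set side by side only. For Smad6 the log2 ratio was -0.10 as F-/Sham (SE 0.030, 95% CI -0.17 to -0.035, adjusted p = 0.743) and 0.19 as F+/Sham (SE 0.030, 95% CI 0.12 to 0.26, adjusted p = 0.564). For Acvrl1 the F-/Sham and F+/Sham log2 ratios were -0.080 and 0.071, for Smad7 -0.14 and 0.17, and for Eng -0.034 and 0.13. Leaving out 1 array moved Smad7 to between -0.23 (without F- array 1) and -0.077 (without Sham array 1) as F-/Sham, and to between 0.11 (without Sham array 3) and 0.23 (without Sham array 1) as F+/Sham. It moved Acvrl1 as F+/Sham to between 0.043 (without F+ array 1) and 0.11 (without F+ array 3). The F+/Sham value of Eng had a 95% CI of 0.072 to 0.20. Those of the receptor gene Bmpr2 were -0.018 and 0.050. Bmp2 had an F-/Sham log2 ratio of 0.059 and an F+/Sham log2 ratio of 0.082, and Bmp4 had -0.049 and 0.0062. The Id genes had F-/Sham and F+/Sham log2 ratios of 0.023 and 0.067 for Id1, 0.036 and -0.016 for Id2, and 0.015 and 0.039 for Id3, of which those of Id2 and Id3 as F+/Sham and of Id1 and Id3 as F-/Sham changed sign when 1 array was left out, as did Bmp4 as F+/Sham. With the arrays centred on endothelial markers the F-/Sham log2 ratios of Bmpr2 and Eng turned to 0.026 and 0.010.

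For F-/Sham, 0 of the 10 genes passed after adjustment, as did 0.0% of all features. At an unadjusted p under 0.05, 1 gene (Smad6) was lower and 0 were higher, against 2.96% of all features lower and 3.07% higher. All F- arrays lay below all Sham arrays for 2 of the 10, Smad6 and Acvrl1, and above them for 0, against 4.64% of all features below and 5.15% above. For F+/Sham, 0 of the 10 passed after adjustment, as did 0.0% of all features. At an unadjusted p under 0.05, 2 genes (Smad6 and Eng) were higher and 0 were lower, against 3.5% of all features higher and 3.9% lower. All F+ arrays lay above all Sham arrays for 3 of the 10 (Smad6, Eng and Bmpr2) and below them for 0, against 5.69% of all features above and 6.56% below.

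**Figure D3:**
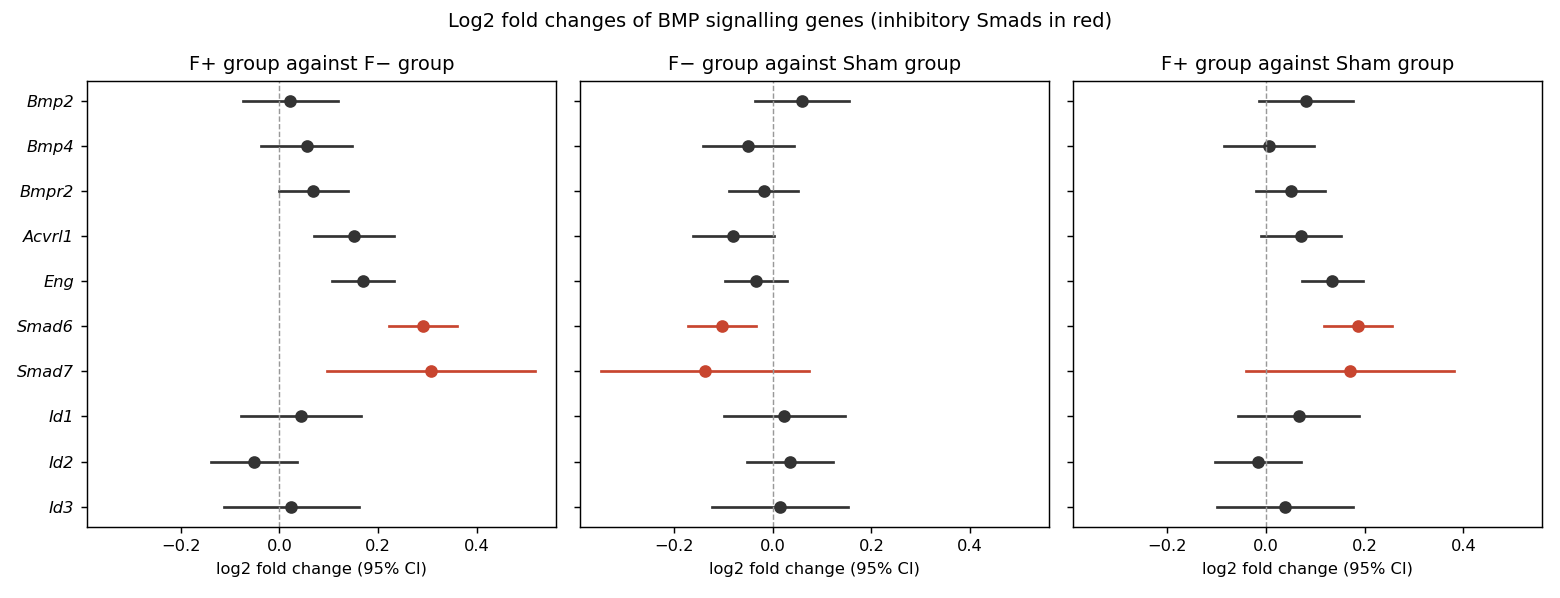
Log2 fold changes (horizontal axis) of the 10 BMP signalling genes as points, with lines for their 95% CIs, in the panels F+/F-, F-/Sham and F+/Sham. The inhibitory Smads, in red, have points at 0.29 and 0.31 for F+/F-, -0.10 and -0.14 for F-/Sham, and 0.19 and 0.17 for F+/Sham, and the points of the Id genes lie near 0 in all 3 panels.

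Other genes of the BMP pathway came from a list of 59 names by role, of which 47 had a feature. For F+/F-, 0 of the 47 passed after adjustment, and the median log2 ratio was 0.025. At an unadjusted p under 0.05, 7 of the 47 were higher and 3 lower, against 3.65% of all features higher and 3.76% lower. By role, 14 of the 47 were extracellular antagonists and modulators (4 higher and 1 lower), 10 were ligands (1 higher and 1 lower), 7 were receptors and co-receptors (1 higher) and 8 were target genes (1 higher), and the roles were not tested against each other. Nbl1, which encodes a secreted BMP antagonist of the DAN family, was 66.5, 70.2 and 68.2 on F+ arrays 1 to 3, 62.5, 57.9 and 61.2 on F- arrays 1 to 3, and 56.9, 59.0 and 63.4 on Sham arrays 1 to 3. Its F+ arrays lay above the other 6, with an F+/F- log2 ratio of 0.17 (SE 0.048, adjusted p = 0.601). Fstl3, which encodes a follistatin-like protein that binds activins, was 68.6, 66.1 and 71.6 on F+ arrays 1 to 3, 66.4, 49.4 and 51.5 on F- arrays 1 to 3, and 53.0, 55.5 and 56.3 on Sham arrays 1 to 3. F- array 1 of Fstl3, the array with the highest macrophage sum of its group, lay among the F+ arrays. For Fstl3 the F+/F- log2 ratio was 0.31 (SE 0.10, adjusted p = 0.635).

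Among 10 other ligand genes, Bmp6 was 78.0, 74.1 and 73.3 on F+ arrays 1 to 3, 70.8, 67.9 and 67.1 on F- arrays 1 to 3, and 73.1, 69.3 and 72.4 on Sham arrays 1 to 3. The F+ arrays of Bmp6 lay above the other 6, with an F+/F- log2 ratio of 0.13 (SE 0.037, adjusted p = 0.601). Mean Bmp7 was 28.5 ± 2.20 (F+) against 28.4 ± 1.60 (F-), each as SD with n = 3. Gdf2, which encodes BMP9, a ligand of ALK1 made in liver, read 30.2 on each F+ array and 27.7, 30.5 and 28.5 on F- arrays 1 to 3. Mean Bmpr1a, a type I receptor gene, was 79.8 ± 1.85 (F+) against 79.4 ± 1.88 (F-), each as SD with n = 3.

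The Smads that carry the signal differed little. Mean Smad1 was 61.3 ± 1.78 (F+) against 61.4 ± 0.577 (F-), and mean Smad5 was 50.6 ± 1.36 (F+) against 50.4 ± 1.53 (F-), each as SD with n = 3. Of 4 receptor-regulated and common Smads, 0 had an unadjusted p under 0.05 for F+/F-, and only Smad4, at 83.2 on every F+ array and 81.7, 83.1 and 82.9 on F- arrays 1 to 3, did not overlap. Banded groups overlapped for the antagonist genes Nog, with means of 22.7 in both, and Grem1, with means of 18.8 (F+) and 18.7 (F-). Bambi, the pseudoreceptor gene, had a mean of 37.0 in both, and Id4 had means of 37.5 (F+) and 35.5 (F-), with overlap. Tob1, which encodes a protein that holds back Smad signalling, was 78.8, 79.6 and 79.6 on F+ arrays 1 to 3 and 84.2, 81.6 and 85.2 on F- arrays 1 to 3. Its F+ arrays lay below its F- arrays, with a log2 ratio of -0.077 (SE 0.025, adjusted p = 0.635).

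**Figure D4:**
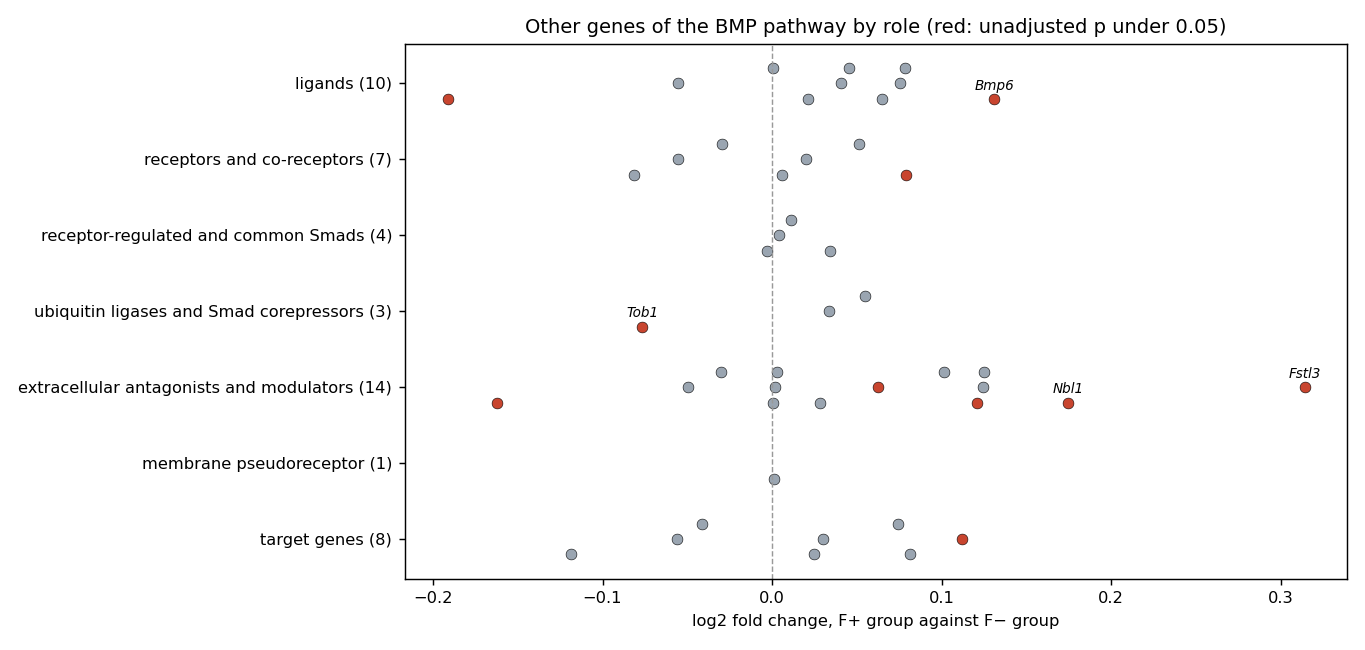
F+/F- log2 fold changes (horizontal axis) of 47 other genes of the BMP pathway, 1 point a gene, by role with the number of genes in brackets, in red at an unadjusted p under 0.05 and with the 4 smallest p named. Fstl3 at 0.31, Nbl1 at 0.17 and Bmp6 at 0.13 lie to the right, Tob1 at -0.077 lies to the left, and the Smads that carry the signal lie near 0.

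For F-/Sham, 0 of the 47 pathway genes passed after adjustment, and the median log2 ratio was -0.023. At an unadjusted p under 0.05, 0 were higher and 2 lower, against 3.07% of all features higher and 2.96% lower, a share near that of all features, so that the genes named here are those with the smallest p and no more. Tll1, which encodes a tolloid-like protease that cleaves the BMP antagonist chordin, read 21.9, 22.9 and 24.7 on F- arrays 1 to 3 and 25.0, 25.0 and 25.5 on Sham arrays 1 to 3 (log2 ratio -0.12, adjusted p = 0.743). Twsg1, which encodes an extracellular BMP modulator, read 70.0, 72.3 and 72.5 on F- arrays 1 to 3 and 74.6, 75.2 and 75.0 on Sham arrays 1 to 3 (log2 ratio -0.066, adjusted p = 0.743). Both genes had all F- arrays below all Sham arrays. Gdf2 had an F-/Sham log2 ratio of -0.091. Hamp, the hepcidin gene and a BMP target in liver, had one of -0.32, with Sham arrays 1 to 3 at 93.1, 106.3 and 72.7 that overlapped F- arrays 1 to 3 at 81.7, 63.9 and 71.5. Its highest value was on Sham array 2, the array high in atrial genes, without which the log2 ratio was -0.19, and it was -0.47 without Sham array 3.

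For F+/Sham, 0 of the 47 passed after adjustment, and the median log2 ratio was -0.014. At an unadjusted p under 0.05, 6 were higher and 3 lower, against 3.5% of all features higher and 3.9% lower. The log2 ratio was 0.19 for Nbl1 (SE 0.048), 0.32 for Fstl3 (adjusted p = 0.616) and -0.063 for Twsg1 (adjusted p = 0.651). Hey1, a Notch and BMP target gene of endothelium, was 46.3, 47.4 and 41.8 on F+ arrays 1 to 3, 41.0, 39.3 and 38.8 on Sham arrays 1 to 3, and 41.8, 41.5 and 41.9 on F- arrays 1 to 3. All F+ arrays of Hey1 lay above all Sham arrays (log2 ratio 0.18, SE 0.048), while F+ array 3 lay within the F- arrays.

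Cell type markers are set beside these genes. In whole tissue, fewer cells of a type and less RNA per cell cannot be told apart. For F+/F-, 0 markers of the 8 lists passed after adjustment, and 14093 of all 29215 features had a positive log2 ratio. At an unadjusted p under 0.05, 3 of 12 endothelial, 3 of 7 smooth muscle and pericyte and 4 of 8 macrophage markers were higher. The same held for 4 of 5 red cell, 2 of 7 mast cell, 0 of 8 fibroblast and 0 of 4 atrial markers. Of 9 ventricular cardiomyocyte markers, 1 was lower, against 3.65% of all features higher and 3.76% lower. Of 13 endothelial markers 12 were measured and 0 were at 0. For F+/F-, 8 of the 12 were higher, with a median log2 ratio of 0.031 and a mean of 0.035. The endothelial sum ranged from 885.4 to 903.1 (F+), from 864.5 to 882.8 (F-) and from 871.4 to 926.0 (Sham). With each array centred on these 12 markers, which was tried only once the data had been seen, the F+/F- log2 ratios were 0.25 for Smad6, 0.27 for Smad7, 0.13 for Eng and 0.12 for Acvrl1. All 7 smooth muscle and pericyte markers were higher (median 0.099), with sums from 543.0 to 565.5 (F+), from 519.8 to 532.5 (F-) and from 532.8 to 542.9 (Sham). All 8 macrophage markers were higher (median 0.23), with sums from 517.1 to 561.3 (F+) and from 416.0 to 515.2 (F-). Of 8 fibroblast markers 5 were higher (median 0.017), with sums from 654.6 to 713.8 (F+) and from 634.8 to 704.4 (F-). All 5 red cell markers measured of 7 were higher (median 0.62), with sums from 180.4 to 292.2 (F+) and from 129.6 to 143.9 (F-), and 6 of the 7 mast cell markers measured of 8 were higher (median 0.11). All 9 ventricular cardiomyocyte markers had lower values (median -0.020), with sums from 1396.7 to 1408.9 (F+), from 1412.4 to 1436.8 (F-) and from 1397.3 to 1426.4 (Sham), so that the F+ and F- sums did not overlap. Of the 4 atrial markers 2 were higher and 2 lower, with sums from 265.2 to 294.9 (F+) and from 201.8 to 278.0 (F-). The part of these cell types in the values of the BMP signalling genes was not tested. The endothelial centring only subtracts the mean of the 12 markers from each array.

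**Figure D5:**
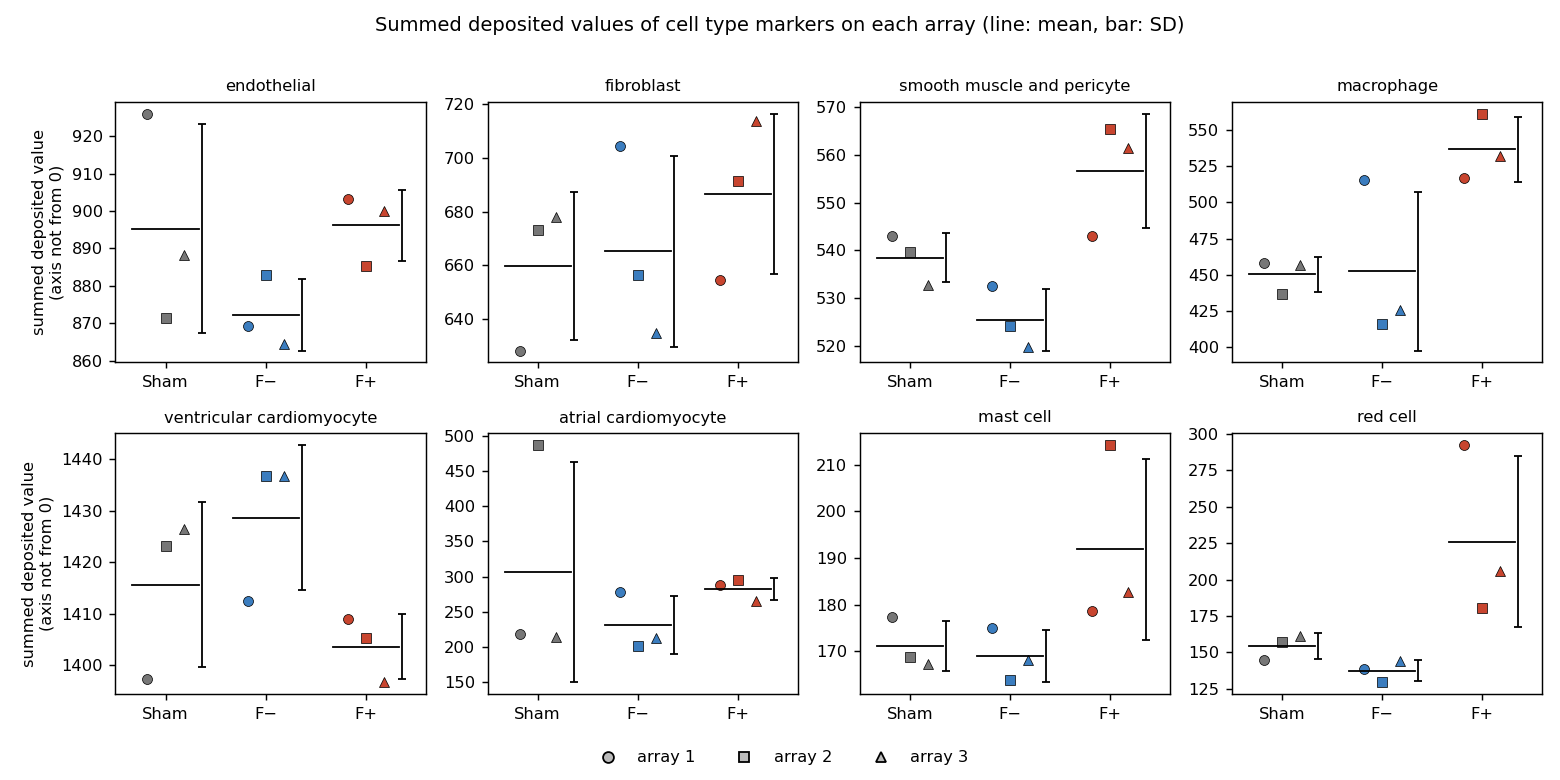
Summed values as deposited (vertical axis, not from 0) of 8 lists of cell type markers on every Sham, F- and F+ array. Circles, squares and triangles are arrays 1, 2 and 3, lines are means and bars are SDs. The endothelial F+ arrays lie at 885.4 to 903.1, just above the F- arrays at 864.5 to 882.8, and Sham array 2 lies far above the other arrays in atrial genes.

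The genes whose log2 values were most like those of Smad6, Acvrl1 and Id1 were found by Pearson's r over the 9 arrays among 14502 other genes, as a description in which a shared difference between groups alone gives a high r. For Smad6 they were Fam219a (r = 0.97), Gpr182 (r = 0.96), which encodes a chemokine-binding receptor, and Cxcl12 (r = 0.95), which encodes a chemokine. Gpr182 was 51.8, 51.7 and 50.6 on F+ arrays 1 to 3, 44.7, 45.5 and 46.0 on F- arrays 1 to 3, and 46.0, 48.8 and 46.8 on Sham arrays 1 to 3. Its F+ arrays lay above the other 6. For Acvrl1 they were Pear1 (r = 0.97), Etv3 (r = 0.93) and B4galt6 (r = 0.92). Pear1, like Acvrl1, had its F- arrays, at 52.3, 51.3 and 51.4, below all other arrays. For Id1 they were Or7g23 (r = 0.94), an odorant receptor gene, Gnrh1 (r = 0.91) and Adamts4 (r = 0.89), and the Sham arrays of Or7g23, at 20.9, 16.7 and 13.5, reached below all F- arrays as those of Id1 did.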

How the data were processed

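Right ventricles of sham-operated, F- and F+ rats were measured on Affymetrix Rat Gene 1.0 ST arrays, 3 per group. The authors deposited 1 value for each of 29215 features on every array, with neither normalization nor scale stated, and these were handled as linear intensities, which is an assumption. Sample titles gave the groups and array numbers. Genes were named through the 15310 features for which the platform annotation lists 1 symbol. On the log2 scale, with no filter, a limma model (version 3.58.1, R 4.3.3) with 1 mean per group was fitted to all 9 arrays, and Benjamini-Hochberg adjusted p-values over all features were called at 0.05. An exact permutation test of 3 arrays against 3 cannot go below 0.1 and was not used. The procedure was tested on simulated data.

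The BMP signalling genes, the pathway list and the marker lists were chosen with earlier results of these data known. The named genes were the 10 genes, the 4 pathway genes with the smallest unadjusted p in each comparison, Bmpr1a, Smad1, Smad5, Bmp6, Bmp7, Bmp10, Gdf2, Nog, Grem1, Bambi, Bmper (no feature found by symbol) and Id4, and the 3 genes most like Smad6, Acvrl1 and Id1. The alternatives were quantile normalization, median centring, dim features left out, 1-symbol features alone, a block for the replicate number, a fit to the 2 groups in question, trend and robust priors, square roots, untransformed values, arithmetic mean ratios, averaged features, arrays left out, and centring on endothelial markers. The precision is limited by the number of arrays.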

Additional observations from a re-analysis of the deposited data

Results flagged for a closer look

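Smad6 was flagged because its banded groups lay on opposite sides of the sham-operated group, with all F- arrays below and all F+ arrays above all Sham arrays. The same order was found in 36 of all 29215 features (0.123%). The difference between the banded groups is the comparison of the F+ group with the F- group, at a log2 fold change of 0.29, and it did not pass limma after adjustment (adjusted p = 0.119, and 0.0326 to 0.770 over the alternatives). The lowest F+ array of Smad6 was 58.0 and the highest Sham array 53.0, and the highest F- array was 50.3 and the lowest Sham array 52.4.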

How the results depend on the processing

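Of the 30 log2 fold changes of the 10 genes, 20 kept their direction under every alternative run, among them all of Smad6, Smad7 and Acvrl1. With dim features left out, only features with 1 symbol, trend and robust priors, or untransformed values, 1 of the 10 genes (Smad6) and 3 features passed between the F+ and F- groups, in place of 0 and 1. No feature passed there (0) with the replicate block, only the 2 groups compared or centring on endothelial markers. The count was 0 to 3 with single arrays left out and 3 without Sham array 2 and F- array 1 together. Between the F+ and sham-operated groups 1 feature passed with only the 2 groups compared or without both of those arrays, against 0. Genes of the 10 with an unadjusted p under 0.05 between the F- and sham-operated groups were 2 in place of 1 after quantile normalization, with dim features left out, with 1 symbol only, with only the 2 groups compared, with trend and robust priors, with square roots and with untransformed values, 0 when centred on endothelial markers, and 1 to 2 with single arrays left out. Between the F+ and sham-operated groups they were 2 to 4 with single arrays left out, with 4 without Sham array 1, against 2. For the 47 pathway genes these counts were 5 when centred on endothelial markers and 4 to 9 with single arrays left out, against 10, between the F+ and F- groups. Between the F- and sham-operated groups they were 4 with 1 symbol only, 6 with untransformed values, 1 with the replicate block or centred on endothelial markers and 1 to 3 with single arrays left out, against 2. Between the F+ and sham-operated groups they were 5 with the replicate block or without both arrays and 4 to 8 with single arrays left out, against 9. The causes were not tested.

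Values near 0 changed sign. Between the F+ and sham-operated groups Bmp4 ranged from -0.023 to 0.036 with single arrays left out (-0.0094 without Sham array 1, -0.0083 without Sham array 2 and -0.023 without F+ array 2) and was -0.0083 without both arrays. Id2 ranged from -0.033 to 0.0071 (0.0071 without Sham array 2 and 0.0052 without F+ array 1) and was 0.0071 without both arrays, and Id3 ranged from -0.021 to 0.098 (-0.021 without F+ array 2). Between the F- and sham-operated groups Id3 ranged from -0.017 to 0.044 (-0.017 without Sham array 2) and was -0.018 without both arrays, Id1 ranged from -0.019 to 0.082 (-0.019 without Sham array 3) and was -0.00081 without both arrays, and Bmp2 ranged from 0.022 to 0.078 and was -0.0024 without both arrays. Between the F+ and F- groups Id3 ranged from -0.037 to 0.083 (-0.037 without F+ array 2). Centred on endothelial markers, Bmp2 was -0.013 and Id3 -0.011 between the F+ and F- groups, and Bmpr2 was 0.026 and Eng 0.010 between the F- and sham-operated groups.

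The replicate block gave Smad6 an adjusted p of 0.421 between the F+ and F- groups and left 0 of the 10 genes past the threshold. Samples of one number did not deviate together over all features, with correlations of -0.205 to 0.0532. These values give no sign that the numbers pair arrays. Taken over all features at once, they cannot exclude a pairing that touches only some features. Averaging the features of a gene could change no value, since each of the 10 genes had 1, and was thus no check.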

Other observations

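Equal values recurred across arrays. Bmp2 was 29.6 on 4 of the 9 arrays and Id2 was 69.6 on 4 of the 9, while Acvrl1 was 65.8 on 3 and Id1 was 70.7 on 3. Over all features, 6075 (20.8%) had the same value, to the 1 decimal deposited, on at least 4 of the 9 arrays.

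Sham array 2 was high in Bmp10 (85.8), Sln (115.1) and Myl7 (149.9), which are genes of atrial muscle, against highest values of 18.9, 53.8 and 110.4 on the other 8 arrays. Nppa was 135.8 on Sham array 2, against 57.7 and 59.7 on Sham arrays 1 and 3. On that array Bmp2 was 27.4 and Id3 61.2, the lowest of the Sham arrays, and Smad6 was 52.8, between the other Sham arrays.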
